A study of Mus musculus with 30 samples.

Results

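Potassium channel genes other than Kcnj8 and Kcnj10 were followed across brain microvascular fragments from 2 pericyte-deficient mouse models, their controls and wild-type mice. A gene was a member if its symbol starts with Kcn and it had a probe set paired with exactly 1 gene. Where a gene had several, the one with the highest mean of all 30 arrays was taken. This gave 82 of the 18194 genes covered, of which 46 had more than 1 probe set. Kcnj8, the pore subunit of the pericyte KATP channel, and Kcnj10, an inward rectifier of astrocytes, were left out by this rule. Kcnj11, the other KATP pore gene, is a member.

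Potassium channels set the membrane potential of the cells in the vessel wall. In vascular smooth muscle their opening hyperpolarises the cell, closes voltage-gated calcium channels and relaxes the vessel. The channels best known for this are the voltage-gated Kv1.5 (Kcna5) and the large-conductance calcium-activated BK channel, built from a Kcnma1 pore and Kcnmb1 accessory subunits. Endothelial cells use inward rectifiers and the calcium-activated Kcnn4 channel, and the secretory epithelium of the choroid plexus, which lies beside brain vessels, carries Kcnj13 and Kcne2.

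Ret mutants (pdgfbret/ret) lack, on both Pdgfb alleles, the motif that keeps platelet-derived growth factor B near the cell that secretes it, and their controls carry 1 such allele (pdgfbret/+), both on C57/B6/J. Ret controls were 8, 8, 8 and 10 months old and ret mutants 10, 7, 7 and 7 months old in replicate order, with 4 arrays each and no brain region named. R26P mutants (Tie2Cre, R26P+/0, pdgfb-/-) have no mouse Pdgfb and make human PDGF-B from a transgene that Cre switches on. The Tie2 promoter that drives this Cre is active in endothelium and also in blood cells. R26P controls (R26P+/0, pdgfb+/+) carry the same silent transgene, mouse Pdgfb and no Cre, so loss of Pdgfb, Cre and transgene expression cannot be told apart. Both R26P groups have a mixed C57/SV129 background and gave 4 arrays of cerebrum and 4 of cerebellum. Their labels contradict each other on age, with 1 year in titles and 2 months in other fields. Wild-type mice (C57/B6/J Notch3+/+, 2 months old) gave 3 arrays of each region. Arrays within a group are biological replicates, per the labels.

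Values are log2 signals, so a difference of 1 is a 2-fold change. The 24 ret and R26P arrays share a lowest value of 2.16, and the wild-type arrays, which had been normalised apart, were compared with each other alone. Mouse Pdgfb read 12.05 to 12.86 on the R26P control arrays and 4.73 to 8.01 on the R26P mutant arrays. Transcripts of the X and Y chromosomes went against the sex label on 4 of 4 ret controls and on none of the other arrays, and by them both ret groups held 3 females and 1 male. Of the 9 measured pericyte markers (10 in the list, Kcnj8 among them), 9 were lower in mutants in each of the 3 mutant comparisons, with a median log2 change of −3.30 (ret), −3.26 (R26P cerebrum) and −2.98 (R26P cerebellum). Endothelial markers, which define the labelled tissue, averaged 12.65 to 13.50 by array. In such bulk samples, fewer cells of a type and less RNA per cell cannot be told apart. Gh, a pituitary transcript, exceeded 8 on ret mutants 1, 2 and 4, R26P control cerebrum 2 and 3, R26P mutant cerebrum 2 and 3, R26P mutant cerebellum 3 and wild-type cerebrum 3. Gabra6, a gene of cerebellar granule cells, read 2.21 on R26P mutant cerebellum 3 and 2.39 on mutant cerebrum 3, so the region of this pair is uncertain, and values without it are given where they change a call.

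Most potassium channel genes were not measured in these vessel preparations. A gene counted as measured when its signal was above 4 on at least 3 of the 30 arrays, which 32 of the 82 members met (39.0%), against 61.8% of all genes. Of the other 50 members, 48 were above 4 on no array, and 19 members stayed within 0.05 of the lowest value on every array. By class, 4 of 13 inward rectifiers, 5 of 12 tandem-pore channels and 7 of 13 voltage-gated pore subunits were measured. The same held for 4 of 8 channels opened by calcium or sodium, 7 of 15 accessory subunits, 3 of 6 Kcnh genes, 1 of 3 Kcnq genes and 1 of 9 electrically silent subunits. Kcnj2, Kcnj12, Kcnn3 and Kcnq5, which have textbook roles in vessels, were not measured. The 3 non-coding RNAs named after channel genes, among them Kcnq1ot1, which is read from the opposite strand within Kcnq1, were not measured either.

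A set of 12 genes was above 4 on all 30 arrays: Kcnj13, Kcnk6, Kcnj11, Kcne2, Kcnk1, Kcna5, Kcnq1, Kcne4, Kcnab1, Kcnn4, Kcnk3 and Kcnt2. The number above 4 on all arrays of a group was 17 in R26P control cerebrum and 17 in control cerebellum, 12 in mutant cerebrum and 13 in mutant cerebellum. It was 13 in ret controls and 13 in ret mutants. Wild-type cerebrum had 27 and cerebellum 26, on values with another normalisation. Of all genes, 57.0% met this in R26P control cerebrum, 57.1% in control cerebellum, 56.3% in mutant cerebrum and 56.5% in mutant cerebellum. The share was 56.3% in ret controls, 56.2% in ret mutants, 58.3% in wild-type cerebrum and 58.6% in wild-type cerebellum. Kcna7, Kcnip1, Kcnmb4, Kcnip3 and Kcng1 counted as measured through the wild-type arrays alone. Some of the 32 members carry little information: Kcnj11 took 10.29, to 2 decimals, on 8 of the 24 ret and R26P arrays and 9.62 on 5 of the 6 wild-type arrays, and Kcna7 took 3.45 on 22 of the 24. On those 22 arrays Kcna7 can show no difference, and Kcnj11 spanned 10.16 to 10.68 over the 24. A second probe set of Kcnj11 was above 4 on 0 arrays, with a mean of 2.19. The level of Kcnj11 thus differs between its probe sets.

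**Figure D1:**
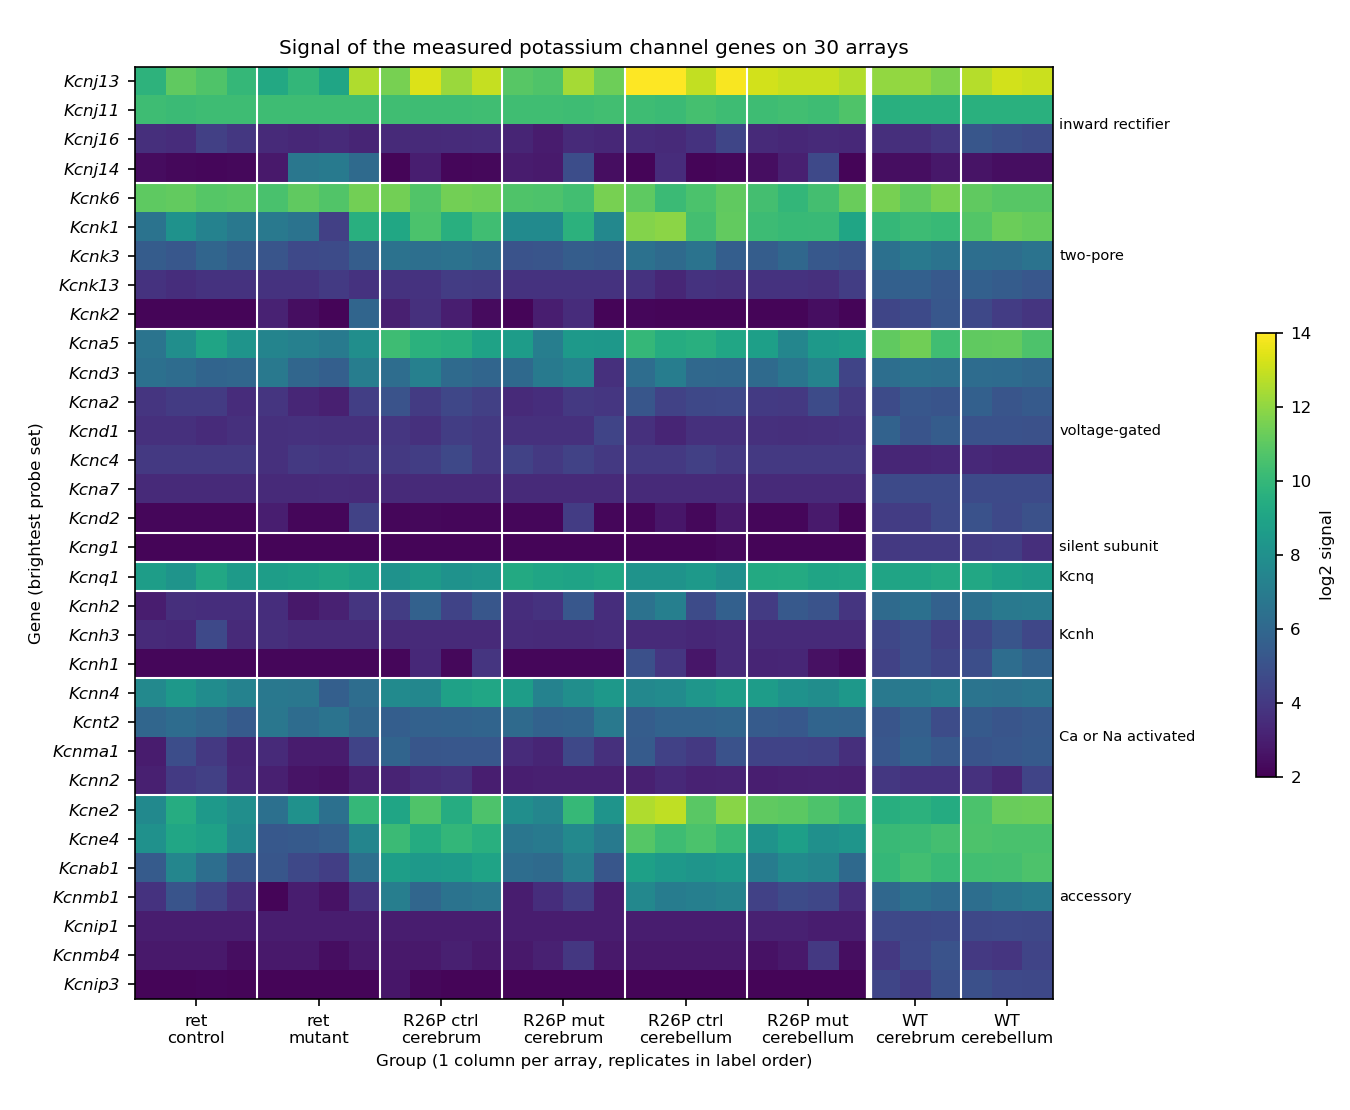
Log2 signal of the 32 measured potassium channel genes (rows, ordered by class) on each of the 30 arrays (columns, grouped by genotype and region); the wild-type arrays right of the wide line were normalised apart. Kcne4, Kcnmb1 and Kcnab1 are darker in the R26P mutant columns than in their controls, Kcnj14 is bright on ret mutants 2 to 4 (6.16 to 6.95), and Kcnj13, Kcne2 and Kcnk1 are brightest in cerebellum.

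In both regions of the R26P model, the largest falls that passed were those of accessory subunits. In cerebrum 6 members were lower and 1 was higher in mutants, where 18.7% of all genes tested passed (10.3% lower and 8.35% higher). The 6 were Kcnmb1, Kcne4, Kcnab1, Kcnma1, Kcna5 and Kcnk3, and the 1 that rose was Kcnq1. In cerebellum 5 members were lower and 1 was higher, where 15.6% of genes passed (8.70% lower and 6.94% higher). Kcnmb1, Kcne4, Kcnab1, Kcna5 and Kcnq1 passed there too, and Kcnk1 took the place of Kcnma1 and Kcnk3. In ret mutants 2 members, Kcne4 and Kcnn4, were lower and 1, Kcnj14, was higher, where 16.6% of genes passed (8.63% lower and 8.00% higher). Mutants lay below controls without overlap in 8 members in cerebrum (13.0% of all genes did), 6 in cerebellum (11.5%) and 3 in ret mutants (11.8%), and above them in 1 member each (12.9%, 11.3% and 11.7%). The 8 include Kcnh1, which was at 2.20 in mutants and, to 2 decimals, in 1 control. The median log2 change of the 32 members was −0.27 in cerebrum, −0.14 in cerebellum and −0.07 in ret mutants, and that of all genes was 0.01, 0.00 and 0.01. A change of at least 2-fold was seen in 9, 7 and 6 members, and in 9.29%, 8.77% and 8.95% of all genes.

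**Figure D2:**
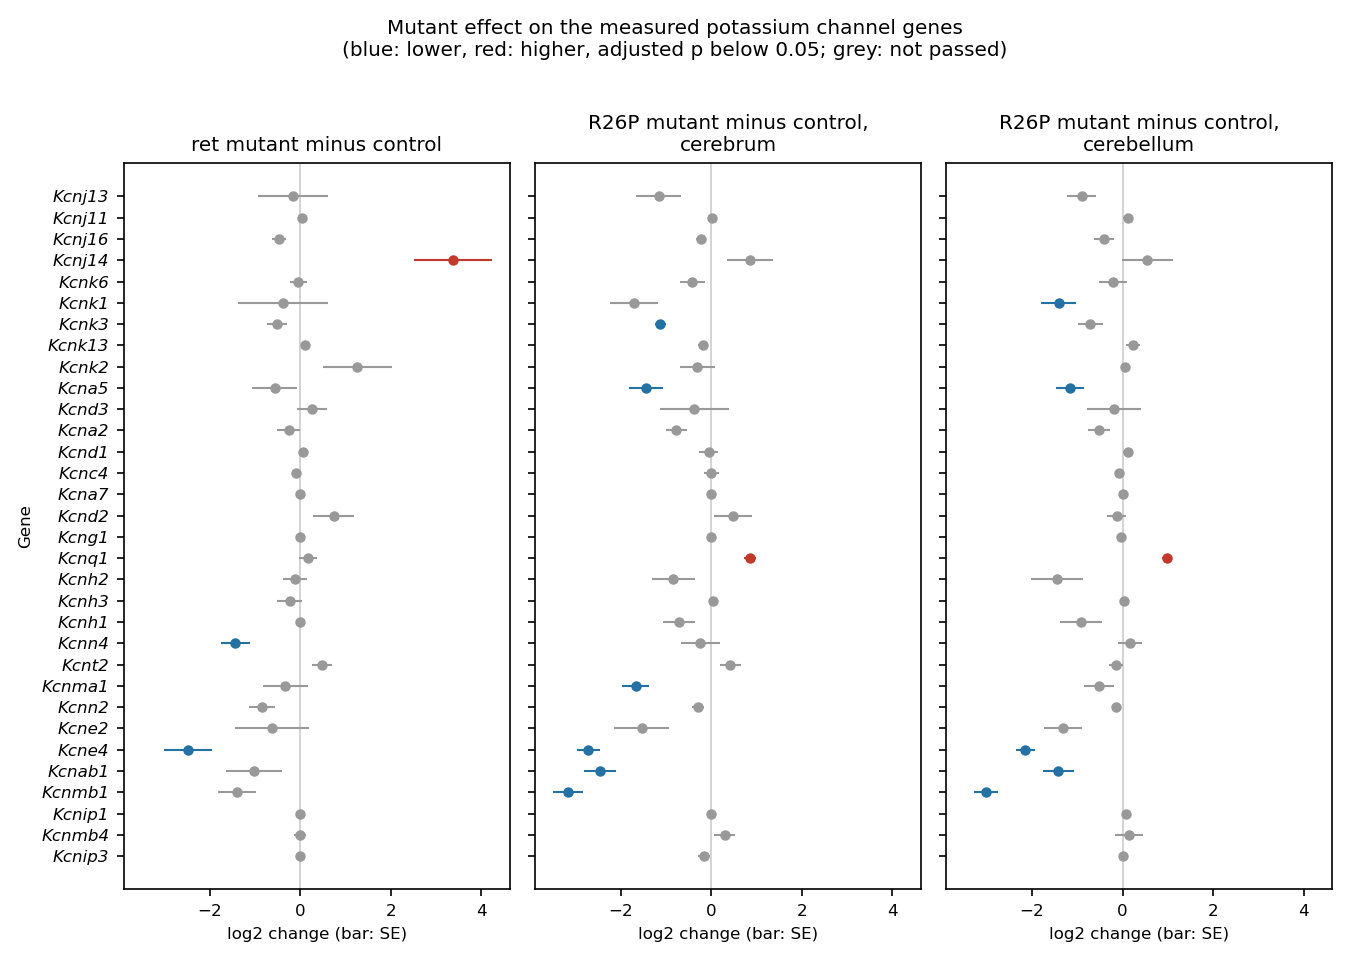
Log2 change (mutant minus control, with its standard error) of the 32 measured potassium channel genes in the 3 mutant comparisons; coloured points passed an adjusted p of 0.05 in limma over all 11243 genes tested. Kcnmb1 has the lowest points in R26P cerebrum (−3.17) and cerebellum (−3.02), Kcne4 is lower in each panel, and Kcnj14 has the highest point in ret mutants (3.38).

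Kcne4 encodes a single-pass accessory subunit that modulates voltage-gated channels and was the 1 member lower in each of the 3 mutant comparisons. Its signal was 10.20, 9.38, 9.95 and 9.57 in R26P control cerebrum and 6.72, 6.93, 7.66 and 6.90 in mutant cerebrum. In cerebellum controls read 10.85, 10.27, 10.59 and 10.12 and mutants 8.15, 8.77, 8.02 and 8.27. Mutants lay below controls without overlap in both regions, and the fall was 6.59-fold in cerebrum (log2 change −2.72 ± 0.25 (SE), limma adjusted p = 4.6e-04) and 4.45-fold in cerebellum (−2.15 ± 0.21, adjusted p = 7.0e-04). Ret controls read 8.07, 9.09, 8.86 and 7.68 and ret mutants 5.32, 5.41, 5.62 and 7.44. Here too the groups did not overlap, although ret mutant 4 came close to the lowest control. The ret fall was 5.57-fold (−2.48 ± 0.53, adjusted p = 0.0191), and it no longer passed without ret control 2 (adjusted p = 0.058) or 3 (0.055) or ret mutant 2 (0.0555) or 3 (0.053).

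Kcnmb1 and Kcnma1 make the accessory and the pore subunit of the BK channel. Kcnmb1 read 7.12, 5.96, 6.57 and 6.75 in R26P control cerebrum and 2.98, 3.55, 4.21 and 2.98 in mutant cerebrum. The cerebellar values were 7.58, 7.06, 7.19 and 7.37 in controls and 4.31, 4.73, 4.54 and 3.54 in mutants. Every control array exceeded every mutant array of its region. In cerebrum the log2 change was −3.17 ± 0.34 (SE, limma adjusted p = 8.8e-04). No fold is given there, since only 1 of the 4 mutant arrays was above 4. In cerebellum the fall was 8.12-fold on average (−3.02 ± 0.26, adjusted p = 4.0e-04). Several mutant values lie near the lowest value of the arrays, and the size of both falls rests on how background was subtracted. In the ret model Kcnmb1 read 3.75, 5.13, 4.48 and 3.68 in controls and 2.16, 2.98, 2.57 and 3.75 in mutants, and its log2 change of −1.40 ± 0.43 did not pass (adjusted p = 0.0636). Only ret mutant 4 lay among the controls, and without it the change was −1.69 and passed (adjusted p = 0.0313).

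The pore gene Kcnma1 read 5.89, 5.21, 5.27 and 5.28 in R26P control cerebrum and 3.48, 3.23, 4.58 and 3.67 in mutant cerebrum, without overlap (log2 change −1.67 ± 0.30 (SE), limma adjusted p = 0.00822). On 3 of the 4 mutant arrays the signal was below 4, so no fold is given. In cerebellum controls read 5.46, 4.32, 4.01 and 5.01 and mutants 4.41, 4.40, 4.32 and 3.61. These groups overlapped, and the change of −0.52 ± 0.34 did not pass (adjusted p = 0.331). The difference between the 2 regional changes, 1.15 ± 0.47, did not pass either (adjusted p = 1). In ret mutants the change was −0.33 ± 0.50 (adjusted p = 0.688), from control values of 2.92 to 4.85. Kcnmb4, the BK accessory subunit best known from neurons, was below 4 on all ret and R26P arrays, at 2.45 to 3.98.

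Kcnab1, a cytoplasmic beta subunit of Kv1 channels, and Kcna5, the Kv1.5 pore, were lower in both regions of R26P mutants. Kcnab1 read 8.71, 8.43, 8.58 and 8.94 in control cerebrum and 6.31, 6.17, 7.11 and 5.23 in mutant cerebrum. In cerebellum it read 8.82, 8.46, 8.28 and 8.47 in controls and 7.05, 7.74, 7.48 and 6.08 in mutants. No mutant reached a control, and the falls were 5.49-fold in cerebrum (log2 change −2.46 ± 0.35 (SE), limma adjusted p = 0.00316) and 2.67-fold in cerebellum (−1.42 ± 0.34, adjusted p = 0.0297). The cerebellar call was lost without control 1 (adjusted p = 0.0799), 2 (0.0654) or 4 (0.0602) or mutant 1 (0.0666), at changes of −1.44 to −1.31, and with the mean of its probe sets (−1.11, 0.0585). Ret controls spanned 5.23 to 7.53 and ret mutants 4.24 to 6.37, and their difference of −1.03 ± 0.62 did not pass (adjusted p = 0.293).

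Kcna5 read 10.25, 9.67, 9.54 and 8.93 in R26P control cerebrum and 8.63, 7.15, 8.44 and 8.39 in mutant cerebrum. Cerebellar controls read 10.00, 9.42, 9.58 and 9.09 and mutants 8.78, 7.52, 8.47 and 8.67. The groups did not overlap in either region, but the gap between the lowest control and the highest mutant was small in both. Kcna5 fell 2.72-fold in cerebrum (−1.45 ± 0.38 (SE), limma adjusted p = 0.0354) and 2.24-fold in cerebellum (−1.16 ± 0.31, adjusted p = 0.0411). Both calls were narrow: in cerebrum the adjusted p was 0.0524 to 0.0878 without control 1, 2 or 3 or mutant 3 or 4 (changes of −1.54 to −1.23), and in cerebellum 0.0504 to 0.101 without control 1, 2 or 3 or mutant 1, 3 or 4 (−1.30 to −1.0). Ret mutants read 6.91 to 7.94 and their controls 6.60 to 9.02 (−0.57 ± 0.49, adjusted p = 0.459). Kcna2, which forms Kv1 channels with Kcna5 in arteries, had a log2 change of −0.78 ± 0.23 in cerebrum (adjusted p = 0.0519), −0.52 ± 0.24 in cerebellum (0.177) and −0.26 ± 0.26 in ret mutants (0.532).

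Kcnk3, the acid-sensitive tandem-pore channel TASK-1, was lower in R26P mutant cerebrum with a small spread. It read 6.51, 6.36, 6.52 and 6.29 in R26P control cerebrum and 5.09, 5.16, 5.53 and 5.39 in mutant cerebrum. That is a 2.19-fold fall without overlap (log2 change −1.13 ± 0.12 (SE), limma adjusted p = 7.8e-04). In cerebellum controls read 6.49, 6.14, 6.55 and 5.57 and mutants 5.53, 6.01, 5.29 and 5.06, which overlap through control 4. The cerebellar change of −0.71 ± 0.27 did not pass (adjusted p = 0.116), and it was −0.92 without control 4 (adjusted p = 0.0481). In ret mutants it was −0.51 ± 0.22 (adjusted p = 0.157). The related Kcnk6, at or above 9.96 on every array, changed by −0.05 ± 0.19 in ret mutants, −0.42 ± 0.27 in cerebrum and −0.21 ± 0.31 in cerebellum, none of which passed.

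**Figure D3:**
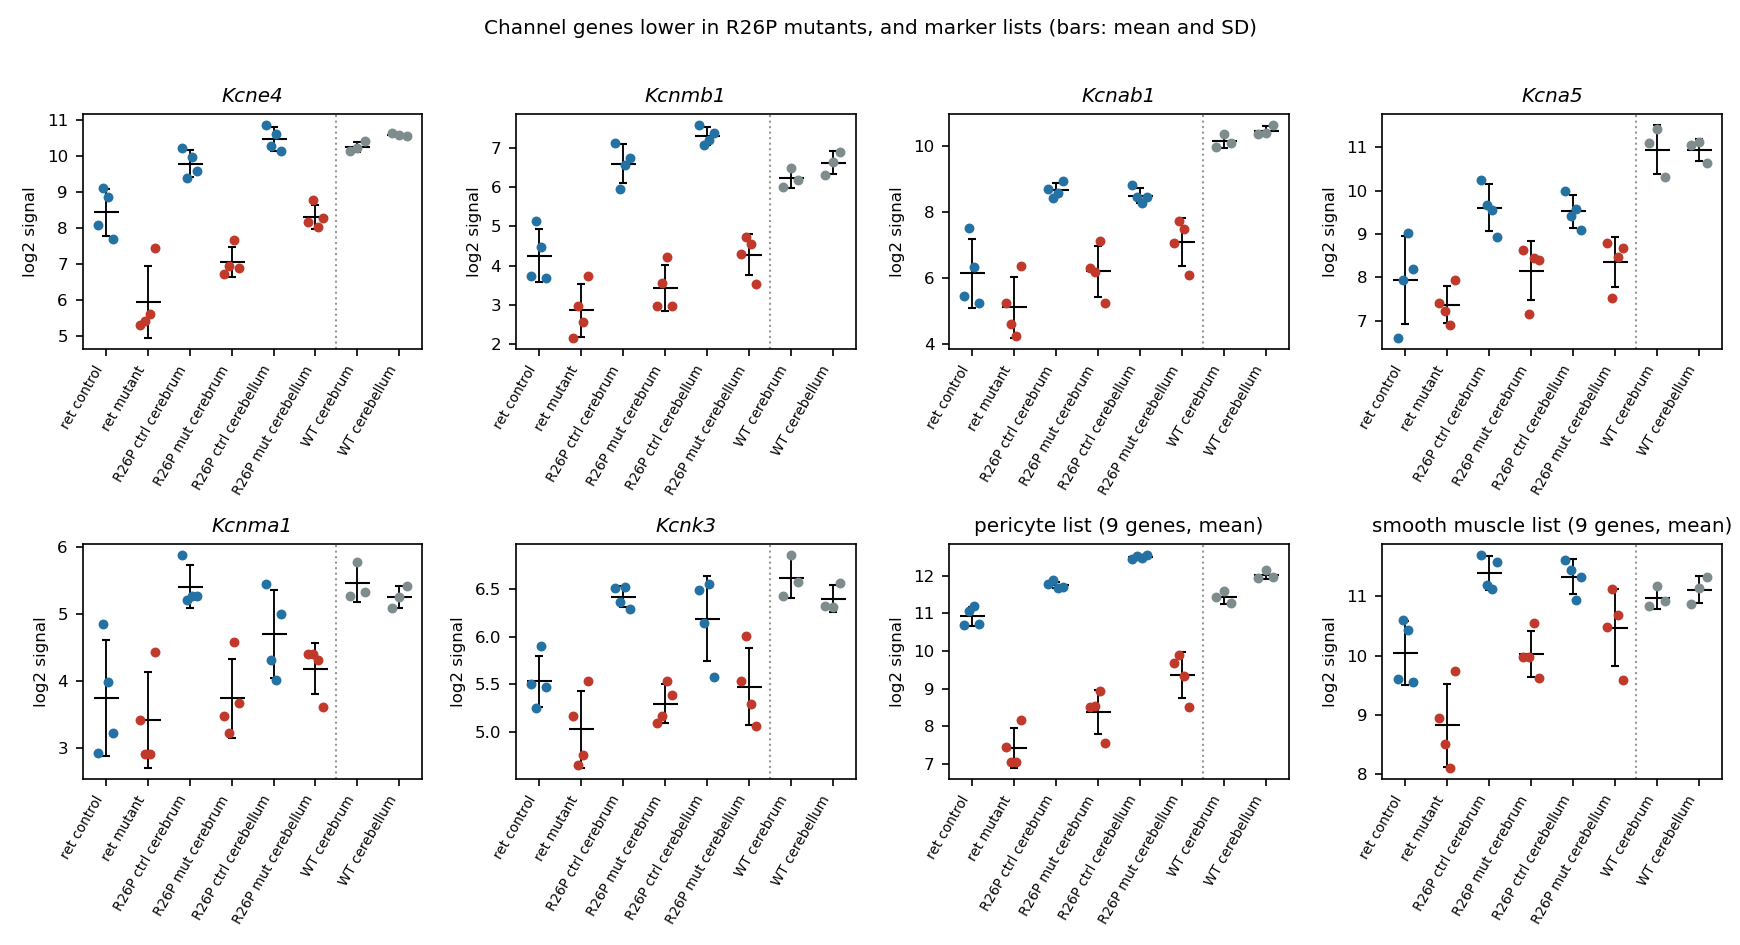
Log2 signal by array (points) with group mean and SD (bars) of 6 potassium channel genes that fell in R26P mutant cerebrum, and the mean of 9 pericyte and 9 smooth muscle markers per array; blue is control, red mutant and grey wild type, which was normalised apart. Mutant cerebrum lies below its controls without overlap in each of these panels, and the smooth muscle mean of mutant cerebellum spans 9.59 to 11.12 against 10.94 to 11.62 in controls.

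Smooth muscle markers were also lower in mutants. Of 10 markers in the list (Acta2, Myh11 and others) 9 were measured, and 8 were lower in R26P cerebrum, 3 in cerebellum and 2 in ret mutants, with none higher. Their mean ranged from 11.12 to 11.70 in R26P control cerebrum against 9.63 to 10.55 in mutants, from 10.94 to 11.62 against 9.59 to 11.12 in cerebellum and from 9.56 to 10.60 against 8.11 to 9.74 in ret mutants. Ret mutant 4, with the highest Kcne4, Kcnmb1 and Kcnma1 of its group, also had the highest smooth muscle mean (9.74). Its pericyte (8.17), astrocyte (9.04), neuron (5.61) and leukocyte (9.10) means were the highest of its group too. Its endothelial (13.13) and oligodendrocyte (6.60) means were not. Kcnj8 fell as well, from 10.06 to 10.58 in ret controls to 5.68 to 7.29 in ret mutants. The part of smooth muscle and pericyte RNA in the falls of these channel genes was not tested.

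The promoters of the BK pair, Kcne4 and Kcna5 are shown because these genes have a known role in the vessel wall and fell together in R26P cerebrum. Each run holds the 250 bases before the RefSeq start of the gene in GRCm38.p6, 5′ to 3′ on the gene's strand. The windows are chr1:78816661-78816910 (plus strand) for Kcne4, chr11:33962763-33963012 (plus) for Kcnmb1, chr6:126535556-126535805 (minus) for Kcna5 and chr14:24004206-24004455 (minus) for Kcnma1. Capitals mark matches to TGGGAA, the core of RBPJ sites, or CATTCC, the core of TEAD sites, on either strand. The CArG box of serum response factor was searched as well.
Kcne4: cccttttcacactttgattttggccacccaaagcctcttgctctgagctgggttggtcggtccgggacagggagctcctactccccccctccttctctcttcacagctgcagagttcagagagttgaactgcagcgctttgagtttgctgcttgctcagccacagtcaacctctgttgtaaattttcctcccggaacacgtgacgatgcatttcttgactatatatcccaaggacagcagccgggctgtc
Kcnmb1: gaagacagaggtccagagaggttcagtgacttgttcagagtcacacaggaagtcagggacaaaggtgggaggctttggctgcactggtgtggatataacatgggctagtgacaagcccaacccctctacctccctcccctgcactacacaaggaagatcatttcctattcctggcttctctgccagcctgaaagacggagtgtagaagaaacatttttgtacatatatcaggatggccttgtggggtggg
Kcna5: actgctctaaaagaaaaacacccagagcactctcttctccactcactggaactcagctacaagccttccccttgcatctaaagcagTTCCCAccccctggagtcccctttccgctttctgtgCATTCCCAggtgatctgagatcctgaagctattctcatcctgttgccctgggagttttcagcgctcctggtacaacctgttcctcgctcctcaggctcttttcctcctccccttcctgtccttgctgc
Kcnma1: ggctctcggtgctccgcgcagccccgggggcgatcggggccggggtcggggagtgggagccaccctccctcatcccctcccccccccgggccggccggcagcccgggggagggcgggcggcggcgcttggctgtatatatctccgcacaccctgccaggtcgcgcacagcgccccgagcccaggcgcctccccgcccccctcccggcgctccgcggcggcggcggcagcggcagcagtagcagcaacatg
Kcna5 held 3 matches, of which a TGGGAA on the opposite strand and a CATTCC overlap, and the other 3 windows held none. Over 32851 promoter windows of this length, 21.6% hold TGGGAA, 12.6% CATTCC and 1.47% a CArG box. The Kcnma1 window is 79.2% G or C, against 53.2% in Kcne4, 50.8% in Kcnmb1 and 53.2% in Kcna5. An entry was found for 23 of the 32 measured members.

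Kcnq1, the pore of a slowly opening voltage-gated channel of heart and epithelia, was the 1 member higher in R26P mutants. It read 8.10, 8.56, 8.13 and 8.28 in control cerebrum and 9.29, 9.05, 8.96 and 9.15 in mutant cerebrum. The cerebellar values were 8.18, 8.16, 8.43 and 8.02 in controls and 9.29, 9.33, 9.01 and 9.09 in mutants. All mutant arrays lay above all controls, by 1.80-fold in cerebrum (log2 change 0.85 ± 0.13 (SE), limma adjusted p = 0.00361) and 1.98-fold in cerebellum (0.98 ± 0.11, adjusted p = 0.00164). Neither call was lost with any array left out. Ret controls read 8.70, 8.22, 9.20 and 8.52 and ret mutants 8.69, 8.83, 8.99 and 8.76, which overlap (0.16 ± 0.20, adjusted p = 0.625). The difference between the ret change and the R26P cerebrum change, −0.69 ± 0.24, did not pass (adjusted p = 0.118). The mean of the 10 endothelial markers was 12.97 to 13.16 in R26P control cerebrum and 13.05 to 13.23 in mutant cerebrum. In cerebellum it was 12.88 to 13.11 in controls and 13.23 to 13.26 in mutants, without overlap. The part of endothelial RNA in the rise of Kcnq1 was not tested.

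Kcnn4 encodes the intermediate-conductance calcium-activated channel of endothelium and blood cells. It read 7.67, 8.41, 7.85 and 7.33 in ret controls and 6.82, 6.76, 5.62 and 6.30 in ret mutants. The groups did not overlap, and the fall was 2.72-fold (log2 change −1.44 ± 0.32 (SE), limma adjusted p = 0.0211), which was lost without ret control 2 (adjusted p = 0.0541) or 3 (0.0551). A dimmer probe set of Kcnn4, above 4 on 23 arrays, changed by −0.26 in the same comparison, so the size of the fall differs between the 2 probe sets. In R26P mutants the change was −0.25 ± 0.43 in cerebrum (adjusted p = 0.715) and 0.17 ± 0.27 in cerebellum (0.687). The difference between the ret and the R26P cerebrum changes, −1.20 ± 0.56, did not pass (adjusted p = 0.231). Leukocyte markers, 4 of 8 measured, averaged higher in ret mutants (8.03 to 9.10) than in ret controls (5.91 to 6.71), and their part in the Kcnn4 values was not tested.

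Kcnj14, a strong inward rectifier best known from motor neurons, stood near the lowest value in ret controls (2.41, 2.28, 2.19 and 2.28) and read 2.80, 6.78, 6.95 and 6.16 in ret mutants. On 3 of the 4 mutants it was above 6, and ret mutant 1 stayed close to the controls. The log2 change was 3.38 ± 0.86 (SE, limma adjusted p = 0.0351), and no fold is given because the controls are near the lowest value. Kcnj14 was above 4 on 5 arrays, 3 of them ret mutants, so it entered the test through the group in which it is high, and without the filter on low values it did not pass (adjusted p = 0.0992). The call was lost without any of the 4 ret controls (adjusted p = 0.0713 to 0.0855) and without ret mutant 2 (0.0895), 3 (0.0855) or 4 (0.0726). Without ret mutant 1 the change was 4.34 and the adjusted p 2.2e-04. Ret mutant 1 was the 10-month-old male of its group, and the other 3 were 7 months old and female, so age, sex and this array cannot be told apart. In the R26P model Kcnj14 was above 4 on mutant cerebrum 3 (4.83) and mutant cerebellum 3 (4.65), and at 2.16 to 3.52 on the other 14 arrays. The change there was 0.85 ± 0.50 in cerebrum (adjusted p = 0.27) and 0.55 ± 0.57 in cerebellum (0.543).

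The pituitary mean was 10.69, 9.84, 3.70 and 12.21 in ret mutants 1 to 4, and Kcnj14 read 2.80 on the first of these and 6.95 on the third. In the R26P model the pituitary mean was highest on mutant cerebrum 3 (11.77) and mutant cerebellum 3 (10.88), the arrays with Kcnj14 above 4. It was also 10.47 on mutant cerebrum 2, 9.54 on control cerebrum 2 and 8.84 on control cerebrum 3. Kcnj14 read 2.89, 3.03 and 2.20 on those arrays. With Gh as a covariate the ret call of Kcnj14 was lost (4.87, limma adjusted p = 0.0809). Neuron markers, 7 of 12 measured, averaged 4.49, 4.19, 3.72 and 5.61 on the same arrays against 4.00 to 4.22 in ret controls. Beyond the Gh covariate, the part of pituitary, neuron and leukocyte RNA in the Kcnj14 signal was not tested.

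**Figure D4:**
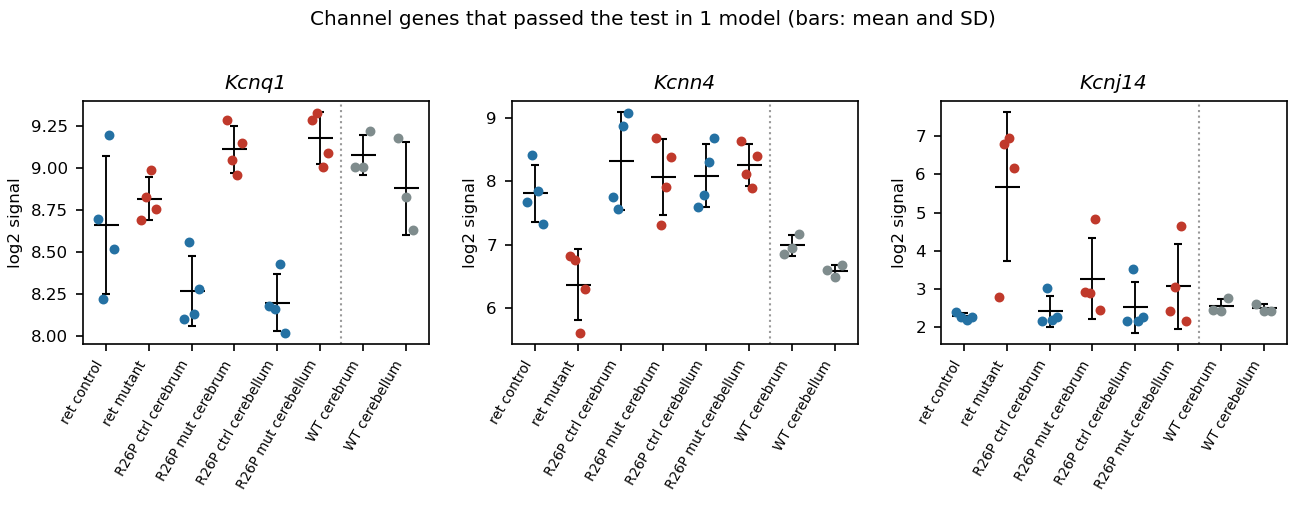
Log2 signal by array (points) with group mean and SD (bars) of Kcnq1, Kcnn4 and Kcnj14, which passed the test in the R26P model alone (Kcnq1) or in the ret model alone; blue is control, red mutant and grey wild type, which was normalised apart. Kcnq1 is at 8.96 to 9.33 in R26P mutants against 8.02 to 8.56 in their controls, and Kcnj14 is above 6 on 3 of 4 ret mutants; no difference between the models passed its own test.

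Kcnj13, Kcne2 and Kcnk1 had higher signal in cerebellum than in cerebrum on average, and so did Kcne4 and Kcnmb1. Kcnj13 encodes the Kir7.1 inward rectifier of transporting epithelia, Kcne2 an accessory subunit of choroid plexus epithelium and Kcnk1 the tandem-pore channel TWIK-1. In wild-type mice Kcne2 read 9.52, 9.69 and 9.37 in cerebrum and 10.61, 11.27 and 11.30 in cerebellum. Kcnk1 read 10.00, 10.21 and 10.10 in cerebrum and 10.79, 11.32 and 11.16 in cerebellum. Kcnj13 read 12.05, 12.08 and 11.63 against 12.67, 13.20 and 13.03. The regions did not overlap for any of these genes. Over all members the cerebellum lay above the cerebrum without overlap in 7 (9.92% of all genes) and below it in 3 (11.8% of all genes). The 7 include Kcnh1 and Kcnd2, which were above 4 on 7 and 8 arrays. All wild-type arrays are among these, so both genes were tested through the wild-type arrays.

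In wild type 3 members were higher in cerebellum and 0 were lower, where 2.12% of all genes passed (1.78% higher and 0.338% lower). They were Kcne2 (log2 difference 1.54 ± 0.21 (SE), limma adjusted p = 0.0309), Kcnj16 (1.25 ± 0.14, adjusted p = 0.0226) and Kcnk1 (0.99 ± 0.15, adjusted p = 0.0375). Kcnj13 did not pass (1.05 ± 0.18, adjusted p = 0.059). It passed with an intensity trend and robust prior (limma adjusted p = 0.0177) or among genes with a mean above 6 (0.039). Arrays centred on the median (0.0433) or a renewed quantile normalisation (0.0457) also brought Kcnj13 past the threshold. Replicate numbers pair the regions, and with the number as a block Kcnk1 alone passed (adjusted p = 0.0443), with Kcne2 at 0.059 and Kcnj16 at 0.0667, where 1.20% of genes passed. The count also fell with fewer arrays: it was 0 without cerebrum 1 or 2 or cerebellum 2 or 3, 1 (Kcnj16) without cerebrum 3, and 3 without cerebellum 1, where 0.107% to 1.41% of all genes passed. The differences moved less, to 1.42 to 1.76 for Kcne2, 0.88 to 1.14 for Kcnk1 and 1.13 to 1.35 for Kcnj16. Kcnj16 forms inward rectifiers with Kcnj10 in astrocytes. It read 3.62, 3.62 and 3.93 in cerebrum and 5.22, 4.94 and 4.78 in cerebellum, without overlap. In the other models it lay at or below 4.50. It was above 4 on 5 arrays, 3 of them wild-type cerebellum, so it was tested through the group in which it is high, and without the filter it did not pass (limma adjusted p = 0.0985).

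R26P controls and mutants had differences of the same sign for Kcnj13, Kcne2 and Kcnk1, with wider spread. The cerebellar excess in controls was 2.08 ± 0.53 (SE) for Kcne2 (limma adjusted p = 0.133), 1.39 ± 0.42 for Kcnk1 (0.193) and 1.34 ± 0.46 for Kcnj13 (0.25). Of the 32 members 0 passed in controls, where 1.17% of all genes did, and 7 had an unadjusted p below 0.05 (14.1% of genes). With the replicate number as a block 2 passed, Kcne4 (0.68, adjusted p = 0.0184) and Kcnmb1 (0.70, adjusted p = 0.0442), both higher in cerebellum, where 4.22% of genes passed. In mutants 0 members and 0% of all genes passed (6 members and 5.52% of genes had an unadjusted p below 0.05), and the block gave 0 as well. The excess there was 2.29 ± 0.53 for Kcne2 (adjusted p = 0.498), 1.69 ± 0.52 for Kcnk1 (0.657) and 1.61 ± 0.36 for Kcnj13 (0.482). Without mutant cerebrum 3 alone, 3 members passed, where 0.374% of genes did: Kcne2 (2.83, adjusted p = 0.0162), Kcnj13 (1.96, 0.0232) and Kcne4 (1.45, 0.0461). Without both arrays of pair 3, whose region is uncertain, 0 members passed, where 0.133% of genes did.

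Between R26P mutants and controls, the same 3 genes were lower on average. Kcnk1 read 9.17, 10.58, 9.58 and 10.32 in control cerebrum and 7.76, 7.74, 9.70 and 7.59 in mutant cerebrum. In cerebellum it read 11.75, 11.93, 10.42 and 11.10 in controls and 10.24, 10.10, 10.15 and 9.05 in mutants. The cerebellar groups did not overlap and the fall of 2.66-fold passed narrowly (log2 change −1.41 ± 0.39 (SE), limma adjusted p = 0.048). That call was lost without each of controls 1, 2 and 4 and mutants 1 to 4, with an adjusted p of 0.0706 to 0.122. In cerebrum mutant 3 lay among the controls, and the change of −1.71 ± 0.53 did not pass (adjusted p = 0.0574). Without that array it was −2.21 (adjusted p = 0.00648). Kcne2 changed by −1.54 ± 0.61 in cerebrum (adjusted p = 0.121), or by −2.08 without mutant 3 (0.0242), and by −1.32 ± 0.42 in cerebellum (0.0695). Kcnj13 changed by −1.17 ± 0.49 in cerebrum (0.133) and −0.90 ± 0.32 in cerebellum (0.101). Without control cerebellum 3, the lowest control for these genes, both passed in cerebellum (Kcne2 −1.70, adjusted p = 0.0148; Kcnj13 −1.21, adjusted p = 0.0127).

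In ret mutants Kcnj13 read 9.23, 9.96, 9.06 and 12.59 against 9.74, 11.08, 10.70 and 9.98 in controls. Kcne2 read 6.44, 8.07, 6.45 and 9.99 against 7.70, 9.43, 8.44 and 7.91. Kcnk1 read 6.87, 6.59, 4.29 and 9.57 against 6.59, 8.12, 7.32 and 6.80. Ret mutant 4 was the highest array of both groups for each of these genes, and none of the changes passed (adjusted p = 0.911, 0.635 and 0.831).

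Choroid plexus markers were also higher in cerebellum than in cerebrum, and lower in R26P mutants than in their controls, on average. The mean of the 5 markers other than Kcnj13 (Ttr, Folr1, Kl, Clic6 and Otx2) was 10.99 to 11.39 in wild-type cerebrum and 11.88 to 12.49 in cerebellum. It was 10.95 to 12.04 in R26P control cerebrum against 9.57 to 11.13 in mutant cerebrum, where mutant 3 was the highest mutant (11.13), and 11.69 to 13.22 against 11.04 to 11.81 in cerebellum. In ret mutants it was 8.76, 9.33, 8.57 and 11.20, highest on mutant 4. Single arrays did not always follow the markers: Kcnk1 read 6.87 on ret mutant 1 and 6.59 on ret mutant 2. Ttr itself stood at 15.36 to 15.84 on the 30 arrays. The part of choroid plexus RNA in the values of Kcnj13, Kcne2 and Kcnk1 was not tested.

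**Figure D5:**
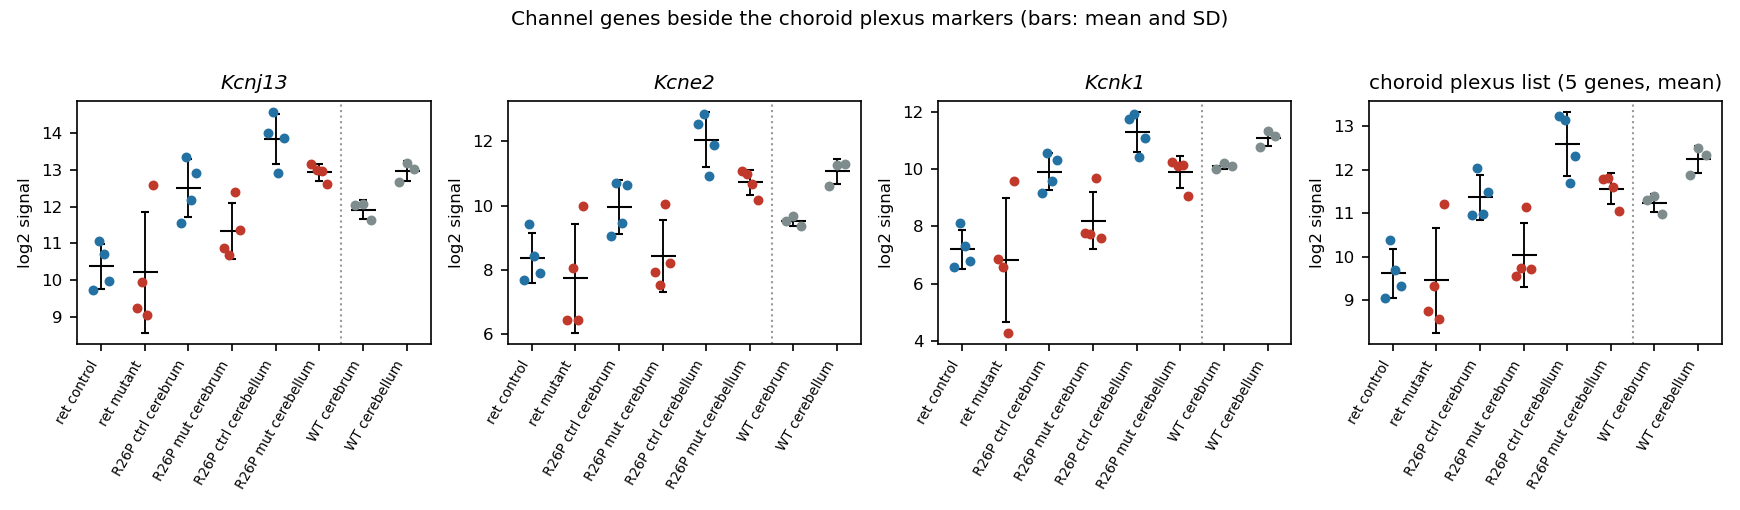
Log2 signal by array (points) with group mean and SD (bars) of Kcnj13, Kcne2 and Kcnk1, and the mean of 5 choroid plexus markers per array; blue is control, red mutant and grey wild type, which was normalised apart. The single high red point of the ret model is ret mutant 4 in all 4 panels (11.20 for the marker mean), and cerebellar groups lie above the cerebral groups of the same genotype on average.

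Tests of a difference between effects called no member. For the R26P effect in cerebellum minus that in cerebrum, 0 of 32 members passed, where 0.116% of all genes did, and 2 members had an unadjusted p below 0.05 (2.75% of genes). That fit left out the pairing of the regions by replicate number. With the number as a block within genotype, a setting not planned beforehand, 0 members and 0.258% of genes passed. For the ret effect minus the R26P effect in cerebrum, 0 members passed, where 3.35% of genes did, and 5 had an unadjusted p below 0.05 (21.8% of genes). The difference nearest to the threshold was that of Kcnmb1 (1.77 ± 0.57 (SE), limma adjusted p = 0.0963), with a smaller fall in ret mutants. Without ret mutant 1, Kcnj14 passed in this test (3.49, adjusted p = 0.00802), against 2.53 ± 1.04 (adjusted p = 0.18) with all arrays. The members that passed in 1 comparison and not in another are therefore not shown to differ between models or regions.

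No other measured member passed in any comparison with all arrays and the main settings. Kcnd3, a pore subunit of fast inactivating A-type channels, read 5.61 to 7.07 in the ret model. In the R26P model it was 5.91 to 7.39 apart from mutant 4, with 3.67 in cerebrum and 4.46 in cerebellum. Kcnt2, a sodium-activated channel, read 5.31 to 6.86 on the ret and R26P arrays and did not pass in any mutant comparison (0.48 ± 0.22 in ret mutants, adjusted p = 0.179). Kcnh2, the pore of the cardiac rapid delayed rectifier, was 2.76 to 3.85 in the ret model, 4.18 to 7.19 in R26P controls and 3.59 to 5.33 in R26P mutants. Its change was −0.84 ± 0.48 in cerebrum (adjusted p = 0.255) and −1.45 ± 0.57 in cerebellum (0.126), or −1.88 without control cerebellum 3 (0.0494). Kcnn2, the small-conductance calcium-activated channel, had a log2 change of −0.85 ± 0.28 in ret mutants (adjusted p = 0.0795), or −1.04 without ret control 1 (0.0468). Kcnk2, the mechanically gated TREK-1 channel, was at 2.16 on 4 of 4 ret controls and at 3.17, 2.43, 2.16 and 5.93 on ret mutants, again with the highest value on mutant 4. The neuron mean of that array was 5.61, the highest of the ret model. Its pituitary (12.21), leukocyte (9.10) and choroid plexus (11.20) means were also the highest of that model. The part of RNA from these sources in the Kcnk2 value was not tested. Kcnh1 was at 2.20 on all ret arrays and 2.20 to 4.92 on the R26P arrays. Within wild type, which was normalised apart and is not set against these values, it read 4.39 to 6.29. The regional difference there was 1.07 ± 0.36 and did not pass (adjusted p = 0.24).

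Other genes of potassium handling that passed were mostly lower in mutants. A list of 31 such genes had 14 measured. It holds KATP regulators, sodium-potassium pump subunits, their FXYD regulators, cation-chloride cotransporters and genes outside these classes, such as Hcn2 and Amigo1. In R26P cerebrum 6 were lower and 0 higher, in cerebellum 3 lower and 1 higher, and in ret mutants 2 lower and 1 higher, beside the shares of all genes given above. Abcc9, the regulatory subunit that partners Kcnj8, fell by 4.96, 4.82 and 4.42 on the log2 scale in ret mutants, R26P cerebrum and R26P cerebellum, where limma adjusted p values were 7.9e-05, 1.4e-04 and 3.6e-05. Abcc9 is also in the pericyte list. Atp1b2, the pump's beta subunit in glia, fell by 2.36, 2.93 and 2.39 (adjusted p = 0.00536, 0.00155 and 0.00203). Fxyd6 was higher in ret mutants (2.39 ± 0.34, adjusted p = 0.00381) and the cotransporter Slc12a7 in R26P cerebellum (0.58 ± 0.11, adjusted p = 0.0109). Slc12a2, the sodium-potassium-chloride cotransporter, was lower in R26P cerebrum (−1.16 ± 0.22, adjusted p = 0.00999) and cerebellum (−1.21 ± 0.12, adjusted p = 7.5e-04). Astrocyte markers, 9 of 10 measured, were lower in 7, 7 and 6 cases in ret mutants, R26P cerebrum and R26P cerebellum, and their part in these falls was not tested.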

How the data were processed

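RNA of brain microvascular fragments was hybridised to 30 Affymetrix arrays after amplification from about 100 ng of total RNA, per the labels' protocols. The deposited values are log2 signals, and the authors used GCRMA 2.6.0 (R 2.4.1), per the submitters' processing notes. GCRMA corrects background by probe sequence, normalises by quantiles and summarises probe sets, so low signals are pulled to shared values and folds near them depend on that correction. Signals were used as deposited. Arrays have no read depth, so precision is limited by how many there are in a group.

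Groups came from the labels. Each gene was represented by its probe set with the highest mean, and 11243 genes above 4 on at least 3 arrays entered the tests. Tests used lmFit and eBayes (limma 3.58.1, R 4.3.3) and only the arrays being compared, two-sided, with Benjamini-Hochberg adjustment over all genes tested and a threshold of 0.05. The fit was tested on simulated data. P-values measure the spread between arrays. For the regions, same-numbered arrays correlated at 0.344 to 0.840 after removal of group means and each array correlated best with its own number, so the number pairs them. Between mutants and controls these correlations were −0.199 to 0.337, and the numbers do not pair.

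The members, marker lists and the list of potassium handling genes were chosen with earlier results of these data known. Named genes were the members past the threshold in each comparison (up to 12, 6 or 4 a direction in mutant, region and difference tests), the 2 with the highest mean of each class, a set with a textbook role in vessels and up to 5 potassium handling genes per mutant comparison. Kcnh1, Kcna7 and Kcnip1 were named after their values were seen, as were Kcnip3, Kcnj16 in ret and R26P arrays and the genes that passed with an array left out. Promoter windows came from RefSeq (GRCm38.p6).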

Additional observations from a re-analysis of the deposited data

Results flagged for a closer look

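Single arrays stood apart from the other 3 of their group in 10 of 106 gene and group combinations tested (9.43%), where the gap to the nearest other array took up more of the group's range than Dixon's critical value allows. The test covered 24 members in groups of 4 with at least 1 array above 4, and 38 groups without such an array were left out. Dixon's value is set so that chance flags about 1 in 20 groups. That rate does not hold here, because the Kcnh3 and Kcnh2 groups below entered the test only through their own high array. No conclusion is drawn from the share of 9.43%. Kcne4 was 7.44 on ret mutant 4, against 5.32 to 5.62 on the others. Kcnk1 was 9.70 on R26P mutant cerebrum 3 (others 7.59 to 7.76) and 9.05 on mutant cerebellum 4 (others 10.10 to 10.24). Kcnma1 was 5.89 on control cerebrum 1 (others 5.21 to 5.28) and 3.61 on mutant cerebellum 4 (others 4.32 to 4.41). Kcna5 was 7.15 on mutant cerebrum 2, against 8.39 to 8.63. Kcnk6 was 10.72 on control cerebrum 2, against 11.33 to 11.43. Kcnh2 was 5.28 on mutant cerebrum 3, against 3.59 to 3.74. Kcnh3 was 4.64 on ret control 3, against 3.40 to 3.44, and Kcna2 was 4.76 on mutant cerebellum 3, against 3.98 to 4.03. Mutant pair 3 of the R26P model, whose region labels are uncertain, supplied 3 of these values.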

How the results depend on the processing

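The count of members that passed moved with the setting in 7 of the 8 comparisons (5 to 9 in R26P cerebrum). It was 0 throughout in the test between regions. Over the same settings 7.64% to 20.8% of all genes passed in R26P cerebrum and 0% to 0.258% in the test between regions. Removing the filter on low values raises the number of genes tested. Without it, 0 members passed in ret mutants and 3 in R26P cerebellum, where 6.75% and 5.94% of all genes did. In wild type 1 passed (Kcnc1, which the filter leaves out), where 0.319% of all genes did. With the replicate number as a block, 1 passed in ret mutants (Kcnn4; 8.78% of all genes), 3 in R26P cerebellum (Kcne4, Kcnmb1 and Kcnq1; 11.1%), 1 in wild type (1.20%) and 2 in R26P control regions (4.22%). In mutants against controls the numbers do not pair the arrays. With the Gh signal as a covariate 1 passed in ret mutants (Kcnn4), where 7.30% of all genes did. For the R26P model this covariate was added after the data were seen. Leaving out 1 array gave 0 to 3 in ret mutants (10.3% to 17.2% of all genes), 3 to 8 in R26P cerebellum (9.94% to 14%), 0 to 3 in wild type (0.107% to 1.41%), 0 to 3 in R26P mutant regions (0% to 0.374%) and 0 to 1 in the test between models (1.13% to 5.43%). A threshold of 5 in place of 4 left 20 measured members.

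Kcnk1 in R26P cerebellum was also lost with the mean of its probe sets (adjusted p = 0.0701), as was Kcnab1 there (0.0585), and Kcna5 in R26P cerebrum with the block (0.0586). Calls were also gained with all arrays, as for Kcnj13 in wild type. With an intensity trend and robust prior, Kcna2 (limma adjusted p = 0.0487) and Kcnk1 (0.0431) passed in R26P cerebrum. In ret mutants Kcnj16 passed with the mean of its probe sets (0.0232) and Kcnmb1 with a renewed quantile normalisation (0.046). No call of a named gene changed direction. Among members that did not pass, the log2 change turned to −0.65 for Kcnd3 and −0.29 for Kcnk2 in ret mutants with the Gh covariate, and to 0.03 for Kcng1 in cerebellum with arrays centred on the median. In cerebellum it turned to −0.18 for Kcnmb4 and −0.01 for Kcnk2 with that covariate, and to −0.20 and −0.01 without mutant 3. With 1 array left out, ranges crossed 0 in ret mutants for Kcnma1 (−0.67 to 0.04), Kcnj13 (−0.96 to 0.22), Kcnh3 (−0.35 to 0.06), Kcnk6 (−0.22 to 0.08), Kcnh2 (−0.29 to 0.07) and Kcnk1 (−1.29 to 0.47). They did so in cerebrum for Kcnn4 (−0.50 to 0.01) and Kcnd3 (−0.82 to 0.40), in cerebellum for Kcnd3 (−0.60 to 0.38), Kcnmb4 (−0.20 to 0.32) and Kcnk2 (−0.01 to 0.08), and in the test between regions for Kcnmb1 (−0.03 to 0.41) and Kcnj14 (−0.83 to 0.22). The cause was not tested. Signals near the lowest value limit what can be read for the dim members.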
